A study of Mus musculus with 12 samples.

Results

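The replication-dependent histone genes were taken as the genes whose symbol in the deposited gene list starts with Hist1h, Hist2h, Hist3h or Hist4h and does not end in -ps. This rule used names and no measured value, and it gave 67 of the 32285 genes counted. They encode the linker histone H1 (6 genes) and the core histones H2A (18 genes), H2B (18 genes), H3 (12 genes) and H4 (13 genes). Their mRNAs were followed in small intestinal organoids of Balb/c mice, in 6 groups and in the epithelial cell types that the organoids contain.

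Organoids were grown from crypts, passaged, kept in Matrigel in medium with EGF, Noggin and R-spondin and exposed for 4 days to 1 of 6 conditions in each of 3 experimental replicates. Control organoids (Ctrl) were cultured alone. The Treg group was co-cultured with 100000 CD4+CD25high FoxP3-GFP+ T cells per well, sorted from the spleen of allogeneic FoxP3-GFP reporter mice. The other Treg groups also received an antibody against IFNγ (Treg_aIFNg), against the IL-10 receptor (Treg_aIL10R) or against both (Treg_aIFNg_aIL10R), each at 10 µg/ml. IL-2 (30 U/ml) and CD3/CD28 beads, which activate T cells, are given in the study's methods for co-cultures. For control organoids of this experiment the study's text names neither addition. An effect of Treg cells and one of these additions therefore cannot be told apart against control. The last group (IFNg_IL10) was stimulated with 0.25 ng/ml recombinant IFNγ plus 10 ng/ml recombinant IL-10 without T cells. Plates were tilted so that T cells lay beside the drop with the organoids. The organoids hold epithelium, and no stroma or other immune cells were added.

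Live EpCAM+ cells were sorted, tagged with a hashtag antibody per group, pooled and sequenced as single cells (scRNA-seq), so that every library holds all 6 groups. The 5 libraries used held 35985 barcodes, of which 24320 carried 1 hashtag and 11911 also passed the limits on depth and mitochondrial share. These cells were summed per group and replicate into 18 sums of 333 to 999 cells and 15087201 to 43938384 unique molecular identifiers (UMIs). Median depth lay between 43651 and 44690 UMIs per kept cell in the 6 groups, and pairs of libraries shared 9 to 24 barcodes. Over all barcodes, the libraries differed more. Their median was 3685.5 and 3485.5 UMIs in replicate 1, 23345 and 27317 in replicate 2 and 4427 in replicate 3. Of cells with 1 hashtag, 2202 of 5417 and 1929 of 4688 were kept in replicate 1. In replicate 2 it was 1979 of 3084 and 3550 of 5364, and in replicate 3 it was 2251 of 5767. The part of this difference in the results was not tested. The epithelial markers Epcam, Cdh1, Krt8, Krt18, Vil1 and Cldn7 reached 4981 to 5141 CPM together, where CPM are UMIs scaled to the same total in every sum. Of 12 T cell markers, 11 were detected and Cd8a was at 0, and their summed level was 1.44 to 2.97 CPM in 5 groups and 1.90 to 18.2 CPM in Treg_aIL10R. The part of these transcripts in the results for Treg_aIL10R was not tested.

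A cell that copies its DNA needs new histones at the same time, and these genes supply them. They lack introns as a rule, they lie in clusters, and their transcription and the stability of their mRNA are tied to S phase. Their mRNA normally ends in a short stem-loop in place of a poly(A) tail. This stem-loop is bound by the stem-loop binding protein Slbp, and cleavage behind it also needs the U7 small nuclear RNP. Some of these genes also give longer, polyadenylated mRNA, in particular in cells that have left the cell cycle. In the intestinal crypt, stem cells and transit-amplifying cells divide, and enterocytes do not. Libraries were primed from poly(A), so that a transcript without a tail is poorly captured, and levels of different histone genes in these data cannot be read as the levels of their total mRNA.

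The stem-loop was searched for because a transcript that ends at it carries no tail, whereas one that runs on behind it can. In the annotated transcripts (GENCODE vM21, GRCm38), the 16-base histone stem-loop motif with a fully paired stem was found within 200 bases after the stop codon in 46 of 67 members and in 0.133% of 21763 other coding genes. For 17 members, the annotation ends within 50 bases of the stop codon, so that the stem-loop may lie beyond it. The following lines give the stem-loop in capitals with its flanking bases for members that recur below.
Hist1h2ap: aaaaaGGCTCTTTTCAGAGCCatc
Hist1h2ae: acaaaGGCTCTTTTCAGAGCCattca
Hist1h1e: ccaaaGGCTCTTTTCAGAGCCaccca
Hist1h1c: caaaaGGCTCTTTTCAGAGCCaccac
Hist3h2a: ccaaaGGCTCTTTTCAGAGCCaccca
Hist2h3c1: acaaaGGCTCTTTTCAGAGCCaccac
Hist1h3c: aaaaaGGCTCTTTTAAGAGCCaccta
Hist1h4d: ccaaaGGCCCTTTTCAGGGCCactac
Hist1h4i: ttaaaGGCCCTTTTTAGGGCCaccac
Hist2h4: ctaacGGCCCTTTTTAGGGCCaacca
The 16-base form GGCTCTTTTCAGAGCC was found in 26 members, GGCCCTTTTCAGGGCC in 7 and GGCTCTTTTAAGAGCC in 6, and 5 further forms in 1 or 2 members each. The lines differ in how far the annotated transcript runs on behind the loop. It ends 3 bases behind it in Hist1h2ap and 74 bases behind it in Hist1h3c. In Hist1h1e it runs on for 1153 bases, in Hist1h1c for 840, in Hist3h2a for 1643 and in Hist2h3c1 for 1167.

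All 67 members lie on 4 chromosomes. Chromosome 13 holds 54 of them between positions 21715763 and 23934851, with 94.6% of the members' UMIs, and chromosome 3 holds 10 between 96219865 and 96270132, with 4.71%. Of the others, 2 lie on chromosome 11 and 1, Hist4h4, on chromosome 6. The annotation gives 1 exon for 62 members. Promoters from RefSeq (GRCm38.p6, 250 bases before the transcription start) matched 61 members, and 4 motifs were searched on both strands. CCAAT, the site of NF-Y, was found in 50 of 61 (82.0%), compared with 37.4% of 26964 other genes. Another gene was counted if any of its promoters of this length held the motif, whereas each member entered with a single promoter. CCAAT occurred in 18 of 18 H2A, 16 of 16 H2B, 5 of 5 H1, 8 of 10 H3 and 3 of 12 H4 promoters. The TATA box letters TATAAA were found in 28 (45.9%), compared with 14.3% of other genes. The octamer ATTTGCAT, the site of Oct1, was found in 7 H2A and 6 H2B promoters (21.3% of members, 1.77% of others) and in 0 promoters of the other families. The letters TTTGGCGC, one form of an E2F site, were found in 0 members and 0.486% of others. The promoters of both H2A genes with the highest UMI sums are shown, because these genes carry over 50% of all UMIs discussed here, with the motifs on either strand in capitals.
Hist1h2ap, chr13:21833476-21833725, minus strand: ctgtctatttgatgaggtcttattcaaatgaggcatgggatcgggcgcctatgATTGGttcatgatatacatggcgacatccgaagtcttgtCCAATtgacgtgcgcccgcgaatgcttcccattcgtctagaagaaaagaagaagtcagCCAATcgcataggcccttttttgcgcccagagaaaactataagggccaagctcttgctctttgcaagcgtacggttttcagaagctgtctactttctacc
Hist1h2ae, chr13:23571221-23571470, minus strand: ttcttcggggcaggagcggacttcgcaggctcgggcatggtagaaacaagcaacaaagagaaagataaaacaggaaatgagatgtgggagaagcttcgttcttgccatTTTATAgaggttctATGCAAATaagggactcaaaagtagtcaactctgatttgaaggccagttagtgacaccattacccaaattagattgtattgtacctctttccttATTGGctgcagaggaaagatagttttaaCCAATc
The window of Hist1h2ap holds CCAAT letters only of the 4 motifs, and that of Hist1h2ae holds the octamer and TATA letters besides. The window of Hist1h2ap overlaps that of the H2B gene Hist1h2br (chr13:21833493-21833742), which is transcribed the other way. That of Hist1h2ae holds the annotated start of the H2B gene Hist1h2bg (chr13:23571396-23572013, plus strand). Its octamer and TATA letters are printed in reverse complement, in the direction of Hist1h2bg, so that they cannot be assigned to Hist1h2ae alone. Letters in such a shared stretch can count for both genes.

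At least 1 UMI was counted for 66 of 67 members and at least 200 UMIs for 60. Under 200 UMIs were counted for Hist2h3c2 (58 UMIs), Hist1h2bq (11 UMIs), Hist1h4m (8 UMIs), Hist1h2aa (7 UMIs), Hist2h2aa2 (6 UMIs), Hist1h1t (2 UMIs) and Hist1h2ba (0 UMIs). The 67 members gave 1076323 UMIs, 0.199% of all UMIs. H2A genes held 60.6% of them, H1 genes 14.5%, H4 genes 10.9%, H2B genes 7.97% and H3 genes 6.04%. Hist1h2ap (ENSMUSG00000094777, chr13:21833026-21833507) alone held 40.3% and Hist1h2ae (chr13:23570517-23571220) 12.8%. The H1 genes Hist1h1e (chr13:23620629-23622558) with 5.91% and Hist1h1b (chr13:21779883-21780625) with 4.78% followed, then the H4 genes Hist1h4d (chr13:23581598-23582735) with 3.85% and Hist1h4h (chr13:23531050-23531519) with 2.64%. The H3 genes with the highest sums were Hist1h3c (2.03%) and Hist1h3e (1.33%), and the H2B genes were Hist1h2bc (1.604%) and Hist1h2br (0.985%). The 10 genes with the highest sums held 77.8%.

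Part of these counts cannot be assigned with certainty, because Cell Ranger drops reads that map to several genes. The last 500 bases of each transcript in GENCODE vM21 were cut into overlapping 90-base stretches, the length of the read. The study counted with a filtered set of a later GENCODE release, which may differ. In 28 members over 50% of the stretches also occurred in another gene, and in 18 members none did. The shared part was 92.4% in Hist1h2ap, 82.0% in Hist1h2br, 56.7% in Hist1h3e, 47.7% in Hist1h2ae, 41.6% in Hist1h3c and 40.2% in Hist1h4h. It was 99.0% in Hist1h1e, shared among others with Hist1h2be, and 100% in Hist2h3c1. Hist1h1b, Hist1h1c, Hist1h2bc, Hist1h4d and Hist3h2a shared none. These shares describe annotated sequence, and they do not give the number of reads that were dropped.

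Cells fell into those with few and those with many histone UMIs. After thinning to 10000 UMIs per cell, a cut of 11 histone UMIs, set from the control cells, gave a low part with a median of 3 and a high part with a median of 39 UMIs in control organoids. Over all groups 5112 of 11911 cells (42.9%) were histone-high, and 968 cells (8.13%) lay near the cut. With phases called from the S and G2M lists of Seurat, which hold none of the members, 84.6% of the histone-high cells were called G2M, 14.9% S and 0.548% G1. The G2M call also took in cells with replication transcripts. A control cluster led by Ccne2, Ccne1 and Rrm2 was 47.8% G2M-called, and another led by Clspn and Pola1 was 59.1% G2M-called. A G2M call therefore does not place a cell after S phase. In control organoids 62.6% ± 1.78 (SD, n = 3) of G2M-called, 37.9% ± 2.53 of S-called and 0.67% ± 0.70 of G1-called cells were histone-high. When control cells were split into low, middle and high levels of the replication list and the mitosis list fixed for this purpose, 95.6% ± 2.01 (SD, n = 3) of cells high in both were histone-high. The share was 82.3% ± 2.46 with high replication and middle mitosis levels, 57.0% ± 10.6 with low replication and high mitosis levels, 11.2% ± 5.21 with high replication and low mitosis levels and 0.715% ± 0.736 in cells low in both. Cells with high replication and low mitosis levels, although mostly below the cut, carried 6.58, 4.98 and 5.17 histone UMIs on average in replicates 1, 2 and 3, compared with 3.53, 3.14 and 3.26 in cells low in both. Cells with middle replication and low mitosis levels carried fewer, with 2.48, 3.04 and 1.95 UMIs, and 0% of them were histone-high. At low mitosis levels the histone level therefore did not rise step by step with the replication level.

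**Figure D1:**
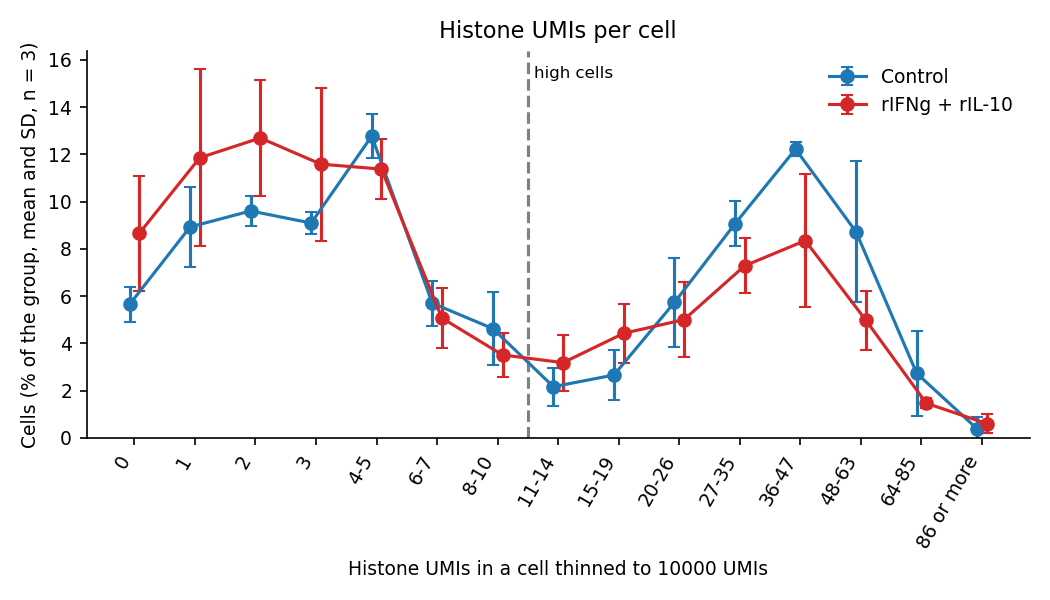
Share of cells in percent (mean and SD, n = 3 replicates) by the number of histone UMIs in a cell thinned to 10000 UMIs, for control organoids (blue) and organoids with rIFNγ plus rIL-10 (red), with the cut of 11 UMIs as a dashed line. Both groups show a low and a high part, and the medians of these parts in control organoids are 3 and 39 UMIs.

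The genes whose level followed the summed histone level most closely over 1774 control cells were, by the mean of Spearman's rho over replicates, Top2a (0.683), Pclaf (0.596), Prc1 (0.551), Mki67 (0.550), Hmgb2 (0.536), Smc2 (0.518), Esco2 (0.515), Tubb5 (0.515), Kif11 (0.509) and Smc4 (0.499). Top2a encodes the topoisomerase that untangles replicated chromosomes, and Pclaf encodes a partner of the replication clamp PCNA. Smc2 and Smc4 are condensin subunits, and Esco2 acts on cohesin in S phase. All values share the cells and libraries, and they describe these cells without a test.

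Not every member followed this pattern. The level in G1-called enterocyte-like cells, a differentiated state with few cell cycle transcripts, was divided by that in S-called cells, with the cells of all groups summed per replicate. Over the 60 members with at least 200 UMIs the median ratio was 0.0819, 34 ratios lay under 0.1 and 4 over 1. Hist1h2bc, an H2B gene annotated with 2 exons (chr13:23684199-23692908) in which no stem-loop was found, reached 85.8, 79.4 and 96.2 CPM in G1-called enterocyte-like cells and 23.4, 26.5 and 25.8 CPM in S-called cells of replicates 1, 2 and 3, a ratio of 3.45. The linker histone gene Hist1h1c (chr13:23738808-23740367) reached 36.4, 37.1 and 56.2 CPM against 19.7, 20.2 and 19.7 CPM, a ratio of 2.18. Neither gene's replicates overlapped between both states. Hist3h2a (chr11:58954685-58956830), an H2A gene, had 2.68, 3.21 and 4.19 CPM against 1.42, 1.64 and 2.14 CPM, a ratio of 1.94. Hist2h3c1 (chr3:96246685-96248509), an H3 gene, had the highest ratio at 3.55, but this value rests on 47 and 21 UMIs. The fifth highest was that of the H4 gene Hist1h4i at 0.666.

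At the other end, Hist1h1b, an H1 gene known from dividing cells, had 1.47, 1.69 and 1.37 CPM in G1-called enterocyte-like cells and 85.0, 97.5 and 69.1 CPM in S-called cells, a ratio of 0.0180. It was followed by Hist1h2an (0.0193), Hist1h2bn (0.0203), Hist1h2bm (0.0213) and Hist1h2af (0.0233). Hist1h2ap had 16.7, 19.9 and 15.995 CPM against 557, 768 and 636 CPM, a ratio of 0.0268. The makeup of the histone transcripts therefore differed between these cells. Hist1h2bc gave 31.4%, Hist1h1c 15.1% and Hist1h1e 14.3% of the members' UMIs in G1-called enterocyte-like cells, where Hist1h2ap gave 6.50%. In S-called cells Hist1h2ap gave 40.0%.

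The ratio varied with the annotated transcript end. The 21 members whose transcript runs on for over 100 bases behind the stem-loop had a median ratio of 0.188 (0.0468 to 3.55), and 3 of them, Hist1h1c, Hist3h2a and Hist2h3c1, lay over 1. The 21 members that end within 100 bases of it had a median of 0.0629 (0.0213 to 0.498). The 18 members in which no stem-loop was found had a median of 0.0485 (0.0180 to 3.45), and of these only Hist1h2bc lay over 1. The ranges overlapped, and no test was made across genes. Members annotated to end within 100 bases of the loop held 575152 UMIs, those that run on 360762 and those without a found loop 140317. Of the 575152 UMIs, 433779 came from Hist1h2ap alone, so that the order of these sums rests on 1 gene. No relation between the annotated end and the number of UMIs can be read from them.

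**Figure D2:**
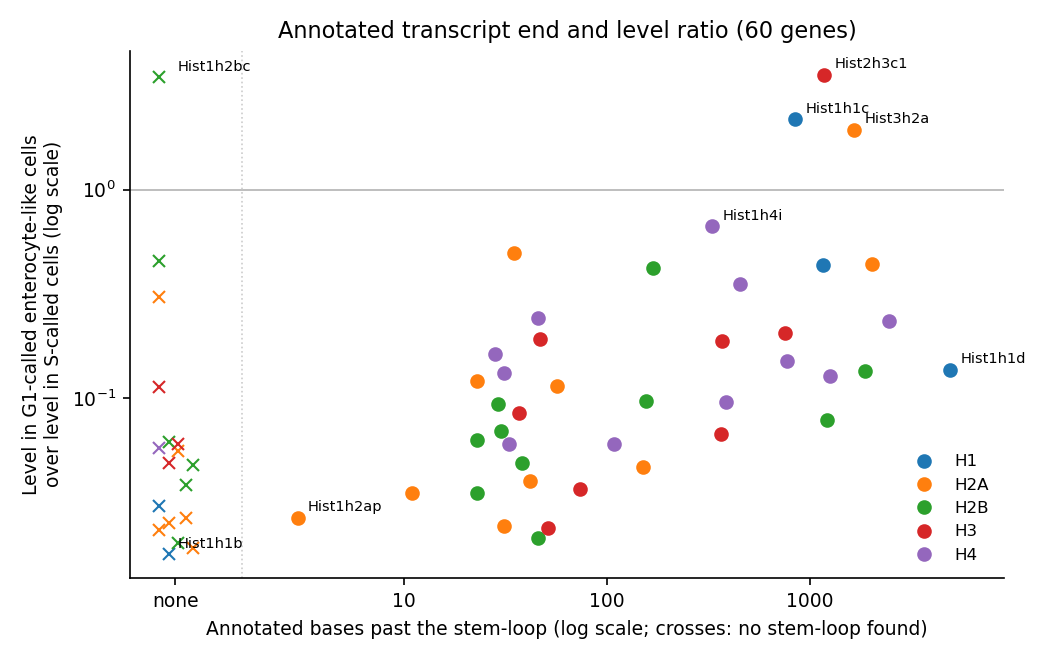
Ratio of the level in G1-called enterocyte-like cells to that in S-called cells (log axis) against the annotated transcript length behind the stem-loop in bases (log axis, members without a found stem-loop at "none"), 1 point per member with at least 200 UMIs, coloured by family. The 4 points over a ratio of 1 are Hist2h3c1, Hist1h2bc, Hist1h1c and Hist3h2a.

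The summed level of the members was close to that of control organoids in the groups with Treg cells and lower after stimulation with recombinant cytokines. In replicates 1, 2 and 3 it was 1993, 2293 and 1771 CPM in control organoids (2019.2 ± 262, SD, n = 3) and 2089, 2069 and 1797 CPM with Treg cells (1985 ± 163). It was 2316, 2209 and 1882 CPM in Treg_aIFNg, 2176, 1944 and 1744 CPM in Treg_aIL10R and 2063, 1976 and 1819 CPM in Treg_aIFNg_aIL10R. The range of each of these groups overlapped that of control. With rIFNγ plus rIL-10 it was 1313, 1806 and 1585 CPM (1568 ± 247), and replicate 2 of this group lay above replicate 3 of control. Relative to control of the same replicate, the level was 1.05, 0.902 and 1.01 times as high with Treg cells (0.988 ± 0.0765). It was 1.06 ± 0.0994 times as high in Treg_aIFNg, 0.975 ± 0.122 in Treg_aIL10R and 0.975 ± 0.0979 in Treg_aIFNg_aIL10R. With cytokines it was 0.659, 0.787 and 0.895 times as high (0.780 ± 0.118), below 1 in 3 of 3 replicates and lowest in replicate 1. These sums are described without a test. In sums over all cells, fewer cells with histone transcripts and fewer transcripts per such cell cannot be told apart.

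**Figure D3:**
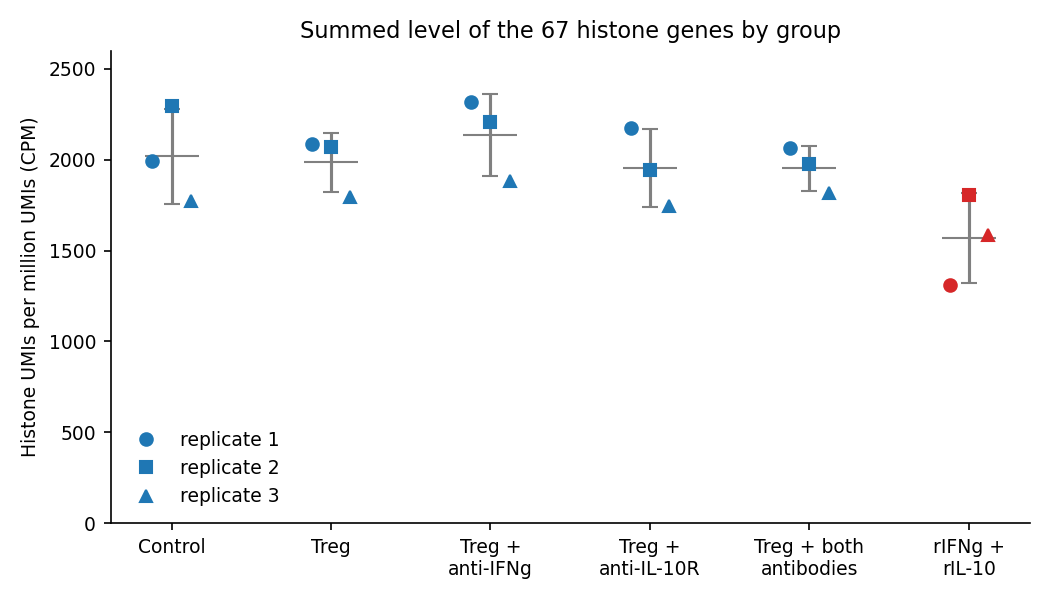
Summed level of the 67 members in CPM in each group, 1 point per replicate with the mean and SD. The cytokine group lies between 1313 and 1806 CPM and control between 1771 and 2293 CPM, and the groups with Treg cells overlap control.

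Each family stood below control with cytokines in 3 of 3 replicates. H1 genes stood at 0.812, 0.784 and 0.961 times the control of replicates 1, 2 and 3, H2A genes at 0.637, 0.801 and 0.883, and H2B genes at 0.669, 0.703 and 0.893. H3 genes stood at 0.630, 0.780 and 0.914 times and H4 genes at 0.581, 0.785 and 0.882 times control. The ratio of replicate 3 was the closest to 1 in each family.

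Among the linker histones, Hist1h1e was at 132.3, 134.3 and 93.3 CPM in replicates 1, 2 and 3 of control, at 142.6, 115.5 and 89.8 CPM with Treg cells and at 98.0, 104.2 and 82.5 CPM with cytokines. Hist1h1b was at 94.7, 112.3 and 68.7 CPM in control, at 99.3, 112.5 and 71.5 CPM with Treg cells and at 87.9, 100.2 and 78.2 CPM with cytokines, inside the control range in each replicate. Of the H2A genes, Hist1h2ap was at 709.9, 954.4 and 793 CPM in control, at 751.6, 867.8 and 784 CPM with Treg cells and at 439.1, 745.2 and 686.4 CPM with cytokines. Only in replicate 2 did cytokine-stimulated organoids reach the lowest control value of this gene. Hist1h2ae was at 278.1, 246.1 and 253.6 CPM in control, at 279.2, 243.5 and 260.4 CPM with Treg cells and at 194.2, 232.8 and 237.7 CPM with cytokines, and of the 10 genes given here it was the one whose control and cytokine values did not overlap.

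Of the H2B genes, Hist1h2bc was at 29.9, 30.4 and 40.8 CPM in control, at 37.4, 33.0 and 44.3 CPM with Treg cells and at 32.2, 31.0 and 28.6 CPM with cytokines, which overlaps control. Hist1h2br was at 19.7, 27.7 and 14.3 CPM in control, at 19.7, 20.96 and 15.97 CPM with Treg cells and at 9.21, 16.5 and 12.2 CPM with cytokines. Of the H3 genes, Hist1h3c was at 52.2, 35.2 and 30.6 CPM in control, at 55.8, 31.2 and 28.7 CPM with Treg cells and at 32.2, 27.8 and 27.6 CPM with cytokines. Replicate 1 of Hist1h3c stood above the other replicates of its group in control and with Treg cells. Hist1h3e was at 27.5, 30.0 and 20.4 CPM in control, at 27.8, 29.7 and 23.3 CPM with Treg cells and at 19.4, 25.3 and 19.4 CPM with cytokines. Of the H4 genes, Hist1h4d was at 89.95, 76.4 and 52.2 CPM in control, at 93.8, 73.7 and 56.3 CPM with Treg cells and at 51.9, 68.7 and 48.3 CPM with cytokines. Hist1h4h was at 54.6, 59.995 and 39.3 CPM in control, at 61.8, 51.6 and 39.4 CPM with Treg cells and at 29.4, 44.0 and 33.8 CPM with cytokines. In control organoids replicate 3 held the lowest value of 7 of these 10 genes.

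Co-culture with Treg cells, with or without antibodies, was compared with control over the sums of all cells with edgeR's quasi-likelihood test on all 15002 genes that passed the filter on low counts, 60 of them members. These comparisons share the control samples. With Treg cells 0 of 60 members changed at an adjusted p of 0.05, where 0.153% of all genes did, and the members' median log2 fold change was -0.05. The member with an unadjusted p under 0.05 was Hist3h2ba, at a log2 fold change of 0.64 ± 0.25 (SE; adjusted p = 0.607). In Treg_aIFNg 0 of 60 members and 0% of all genes were called, 0 members had an unadjusted p under 0.05, and the median was 0.04. In Treg_aIL10R 0 of 60 members were called against 0.453% of all genes, and the median was -0.10. There, 4 members had an unadjusted p under 0.05, namely Hist3h2ba (0.83 ± 0.25, adjusted p = 0.224), Hist1h3a (-0.33 ± 0.13, adjusted p = 0.428), Hist4h4 (-0.30 ± 0.12, adjusted p = 0.467) and Hist1h3d (-0.27 ± 0.12, adjusted p = 0.519). In Treg_aIFNg_aIL10R 0 of 60 members and 0% of all genes were called, 0 members had an unadjusted p under 0.05, and the median was -0.10. Between Treg and Treg_aIFNg_aIL10R, which both contain T cells, 0 of 60 members were called against 0.207% of all genes, with unadjusted p under 0.05 for Hist1h2bc (0.34 ± 0.11, adjusted p = 0.319) and Hist1h1b (0.20 ± 0.07, adjusted p = 0.428). DESeq2 also called 0 members in each of these 5 comparisons. The members with low p-values were chosen for mention after their values were seen.

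After stimulation with rIFNγ plus rIL-10, 37 of 60 members fell and 0 rose at an adjusted p of 0.05, whereas 17.5% of all 15002 genes fell and 18.4% rose. The median log2 fold change of the members was -0.45 and that of all genes -0.01. By family, 3 of 5 H1, 11 of 16 H2A, 9 of 16 H2B, 6 of 11 H3 and 8 of 12 H4 genes fell. Of the called members with the highest UMI sums, Hist1h2ap fell by 0.39 ± 0.10 on the log2 scale (SE; adjusted p = 0.00948), Hist1h1e by 0.32 ± 0.08 (adjusted p = 0.00758) and Hist1h4d by 0.33 ± 0.12 (adjusted p = 0.0473). Hist1h4h fell by 0.50 ± 0.14 (adjusted p = 0.0132) and Hist1h3c by 0.38 ± 0.12 (adjusted p = 0.0243). The larger changes were in less abundant H2B and H4 genes. Hist1h2bl was at 6.29, 7.23 and 2.56 CPM in control and at 2.80, 3.66 and 2.25 CPM with cytokines, and it fell by 0.86 ± 0.21 (adjusted p = 0.00667). Hist1h4f fell from 2.79, 2.42 and 1.73 CPM to 1.01, 1.80 and 1.13 CPM, or by 0.78 ± 0.24 on the log2 scale (adjusted p = 0.0215). Hist2h4 fell by 0.71 ± 0.20 (adjusted p = 0.0146), Hist1h2br by 0.69 ± 0.16 (adjusted p = 0.00443) and Hist1h2bn by 0.68 ± 0.16 (adjusted p = 0.00443).

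The count of 37 depended on how samples were handled. Within replicates, 41 of 60 members were lower with cytokines in 3 of 3 replicates, and 34 of the 37 called members were among these. Without replicate 1 the count was 18, without replicate 2 it was 17 and without replicate 3 it was 25. Without the replicate block in the fit it was 1, Hist1h2bn. DESeq2 called 34 members lower and 0 higher. When each replicate was reduced to the same number of cells per group in every cell class, the count was 15, and the summed level stood at 0.906, 0.825 and 0.930 times control. This setting kept 8052 of 11911 cells, so that fewer cells and class makeup both enter the count of 15. The shares of all genes called under these other settings are not given here. A lower count can therefore not be read as particular to the histone genes.

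Several members did not pass the test with cytokines. Among those with high levels, Hist1h2ae stood at -0.21 ± 0.09 (adjusted p = 0.0768), Hist1h2bc at -0.10 ± 0.11 (adjusted p = 0.515) and Hist1h1b at -0.03 ± 0.07 (adjusted p = 0.821). Hist1h4i stood at -0.01 ± 0.09 (adjusted p = 0.985). The 1 member with a positive value was Hist3h2ba, with 0.544, 0.598 and 0.512 CPM in control and 0.894, 0.965 and 0.663 CPM with cytokines, a log2 fold change of 0.63 ± 0.25 (adjusted p = 0.0647). With looser limits on cells, this gene was called higher. Of the 4 members with a ratio over 1 in enterocyte-like cells, Hist1h1c (-0.30 ± 0.11, adjusted p = 0.0395) and Hist3h2a (-0.56 ± 0.18, adjusted p = 0.0261) fell, and Hist1h2bc and Hist2h3c1 (-0.31 ± 0.39, adjusted p = 0.561) did not pass.

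**Figure D4:**
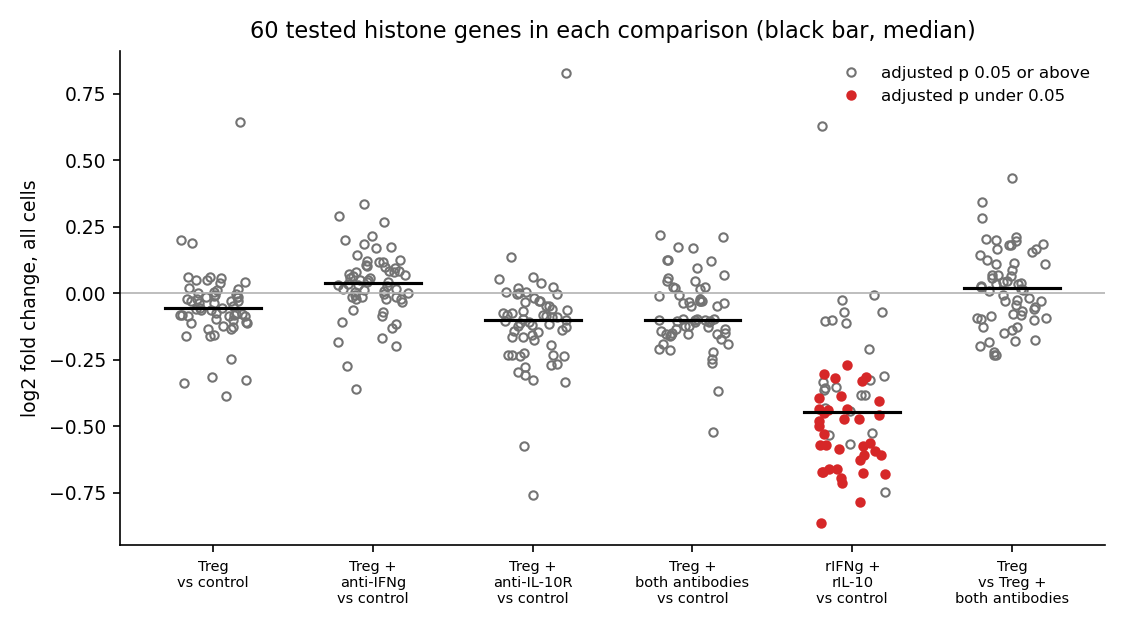
Log2 fold change in all cells of each of the 60 tested members (points) in each of 6 comparisons, with the median as a black bar and members with an adjusted p under 0.05 filled in red. Filled points occur in the comparison of rIFNγ plus rIL-10 with control, where 59 of 60 values are below 0 and 37 members passed.

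The share of histone-high cells was 44.5%, 45.6% and 40.9% in replicates 1, 2 and 3 of control (43.7% ± 2.48, SD, n = 3) and 42.7%, 44.0% and 40.7% with Treg cells (42.5% ± 1.67). It was 46.1% ± 1.95 in Treg_aIFNg, higher than control in 3 of 3 replicates by 1.597, 2.43 and 3.29 percentage points. It was 43.3% ± 0.673 in Treg_aIL10R and 43.7% ± 3.22 in Treg_aIFNg_aIL10R. With cytokines it was 26.2%, 43.0% and 36.6% (35.3% ± 8.49). The difference from control was -18.3, -2.62 and -4.23 percentage points, so that most of the mean of -8.38 rests on replicate 1, and without replicate 1 the mean was -3.43. The unthinned share in control was 43.1% ± 2.87 and that with cytokines 35.0% ± 8.57. Among histone-high cells, the mean number of histone UMIs with cytokines was 0.979, 0.775 and 0.9902 times that of control, and among the other cells it was 0.820, 0.831 and 0.950 times that of control.

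The shares of cells assigned to the cell classes differed between control and the cytokine group. Classes were named from markers of control clusters built without the members, the listed S, G2M, replication and mitosis genes and a list of interferon genes. Cell cycle genes outside these lists remained, such as Kif4, Spc25, Pttg1 and Fbxo5, which were among the leading genes of clusters left without a type name (unnamed cycling), and Aspm and Pttg1 also were among those of ISC-like clusters. Cells like intestinal stem cells (ISC-like) made up 46.4% ± 2.96 (SD, n = 3) of control cells and 19.9%, 32.5% and 29.7% of cytokine-stimulated cells. Enterocyte-like cells, which hold few histone transcripts, made up 10.1% ± 3.25 in control and 24.6%, 10.3% and 12.9% with cytokines. Goblet/Paneth-like cells made up 4.35% ± 1.51 and 11.5% ± 1.03, and unnamed cycling cells 28.7% ± 0.653 and 28.7% ± 5.93. The goblet/Paneth-like name covers a mixture. A control cluster of 28 cells with goblet and Paneth markers was led by Dclk1, had 8 tuft cell markers raised and was 64.3% G2M-called. Another of 23 cells, with Dll1 and Atoh1, had 6 goblet and 0 Paneth markers raised and was 91.3% G2M-called. A last one of 19 cells, with goblet and Paneth markers, was 94.7% G1-called. G1-called cells made up 23.9% ± 4.401 in control and 46.6%, 29.0% and 29.4% with cytokines. Replicate 1 with cytokines held both the most enterocyte-like cells and the fewest histone-high cells. The part of this makeup in the lower histone level was addressed only by the equal number of cells per class, given above, and by the tests within classes that follow.

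In control organoids the histone-high share was 62.7% ± 2.32 (SD, n = 3) in unnamed cycling, 51.3% ± 3.14 in ISC-like and 33.3% ± 3.33 in goblet/Paneth-like cells. It was 2.40% ± 2.07 in cells like enterocyte progenitors (EP-like) and was 0 of 164 enterocyte-like cells, where the upper limit from counting error alone is 1.83%. With cytokines it was 59.2% ± 5.45 in unnamed cycling cells, 26.6% ± 8.55 in goblet/Paneth-like cells and 53.3% ± 6.93 in ISC-like cells. The ranges of both groups overlapped in each of these 3 classes.

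Within ISC-like cells, the summed level with cytokines was 1.07, 0.876 and 1.01 times control in replicates 1, 2 and 3, and 2 of 59 members fell, where 12.6% of 13020 genes fell. These were Hist1h2bc, from 17.1, 19.9 and 26.6 CPM to 12.4, 15.2 and 13.5 CPM (-0.53 ± 0.14, adjusted p = 0.00877), and Hist1h2br, from 25.7, 33.0 and 16.8 CPM to 18.6, 25.5 and 15.7 CPM (-0.31 ± 0.11, adjusted p = 0.0364). The median over members was -0.09. Hist1h2ap stood at -0.03 ± 0.06 (adjusted p = 0.794). Without the replicate block 0 members were called here, and without replicate 2 the count was 7.

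Within unnamed cycling cells, the summed level was 0.805, 0.847 and 0.870 times control, and 21 of 57 members fell, where 11.4% of 12019 genes fell. The median over members was -0.36, and 33 had an unadjusted p under 0.05. Hist1h4h was at 64.8, 65.3 and 48.4 CPM in control and at 34.6, 43.6 and 33.5 CPM with cytokines (-0.62 ± 0.11, adjusted p = 0.000228), without overlap between the groups. Hist1h2ap was at 968, 1162 and 1200 CPM in control and at 753, 996 and 992 CPM with cytokines (-0.23 ± 0.08, adjusted p = 0.0295). Hist1h2br was at 20.5, 30.2 and 18.4 CPM in control and at 11.2, 15.4 and 16.3 CPM with cytokines (-0.69 ± 0.16, adjusted p = 0.00345). Without the block 3 members were called, and without replicate 2 the count was 12.

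The difference between both classes in their response to cytokines was tested in 1 fit. Of 58 members 1, Hist1h4h, differed (-0.65, adjusted p = 0.0383), where 0.533% of 12760 genes did. Hist1h4h was lower with cytokines in unnamed cycling cells and stood at 0.03 ± 0.09 (adjusted p = 0.861) in ISC-like cells. The median difference over members was -0.32, and 15 had an unadjusted p under 0.05. A different response of the other members in both classes was therefore not shown.

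In EP-like cells the summed level was 0.699, 0.604 and 0.743 times control, and 3 of 22 members fell, where 6.86% of 10403 genes fell. Hist1h1d, an H1 gene, was at 12.7, 13.98 and 8.74 CPM in control and at 6.29, 3.01 and 3.90 CPM with cytokines (-1.43 ± 0.35, adjusted p = 0.00699). Hist1h4h was at 10.0, 16.6 and 9.83 CPM in control and at 6.29, 6.66 and 3.90 CPM with cytokines (-1.05 ± 0.27, adjusted p = 0.00966). Neither gene's groups overlapped, but these values rest on few UMIs. In replicate 3 the sums held 915101 UMIs from 25 control cells and 1025776 UMIs from 29 cells with cytokines. Hist1h1e also fell (-0.62 ± 0.20, adjusted p = 0.0401). Without replicate 3 the count was 1. In enterocyte-like cells the summed level was 0.616, 0.991 and 0.640 times control. There, edgeR called 2 of 14 members lower, Hist2h2aa1 (-0.99 ± 0.33, adjusted p = 0.0314) and Hist1h1d (-1.42 ± 0.48, adjusted p = 0.0335). Of all 9847 genes 12.2% fell, so that the 2 of 14 lay near the share of all genes. Without the block, without replicate 1 and without replicate 3 the count there was 0, and without replicate 2 it was 4. In goblet/Paneth-like cells the summed level was 0.712, 0.826 and 0.691 times control, and edgeR called 0 of 39 members, where 3.9% of 9448 genes changed and 2 members had an unadjusted p under 0.05. The sums of this class hold 13 to 96 cells. Endocrine-like cells were too few to be tested.

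By phase call, 16 of 60 members fell with cytokines in G2M-called cells, where 13.5% of 13758 genes fell. Hist1h2ap was at 926, 1180 and 1102 CPM in control and at 793, 1019 and 946 CPM with cytokines (-0.18 ± 0.05, adjusted p = 0.0177), and Hist4h4 had the lowest adjusted p (-0.51 ± 0.10, adjusted p = 0.00195). Without the block 0 members were called, without replicate 2 the count was 9 and without replicate 3 it was 6. In S-called cells edgeR called 0 of 52 members, where 15.5% of 11307 genes changed and 5 members had an unadjusted p under 0.05. The median over members was -0.27 in G2M-called and -0.10 in S-called cells. The difference between both was tested in 1 fit, and edgeR called 0 of 58 members and 0.135% of 12568 genes, with 4 members at an unadjusted p under 0.05. Because the G2M call takes in cells with replication transcripts, these comparisons do not separate S phase from G2 and mitosis.

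In G1-called cells 3 of 27 members fell, where 12.5% of 12308 genes fell. The 3 of 27 lay near the share of all genes, so that this count is not particular to the histone genes. Hist1h2bc, the member with the highest level in these cells, was at 70.7, 65.6 and 95.1 CPM in control and at 49.2, 58.5 and 51.9 CPM with cytokines (-0.51 ± 0.13, adjusted p = 0.00941), so that its groups did not overlap there although they did over all cells. Hist1h4h was at 9.60, 11.1 and 7.85 CPM in control and at 6.92, 6.34 and 4.99 CPM with cytokines (-0.65 ± 0.18, adjusted p = 0.0158). Hist1h1d was at 8.49, 6.78 and 5.73 CPM in control and at 2.53, 3.62 and 4.69 CPM with cytokines (-1.07 ± 0.30, adjusted p = 0.0168). Without replicate 1 the count was 0, without replicate 2 it was 5 and without replicate 3 it was 1.

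**Figure D5:**
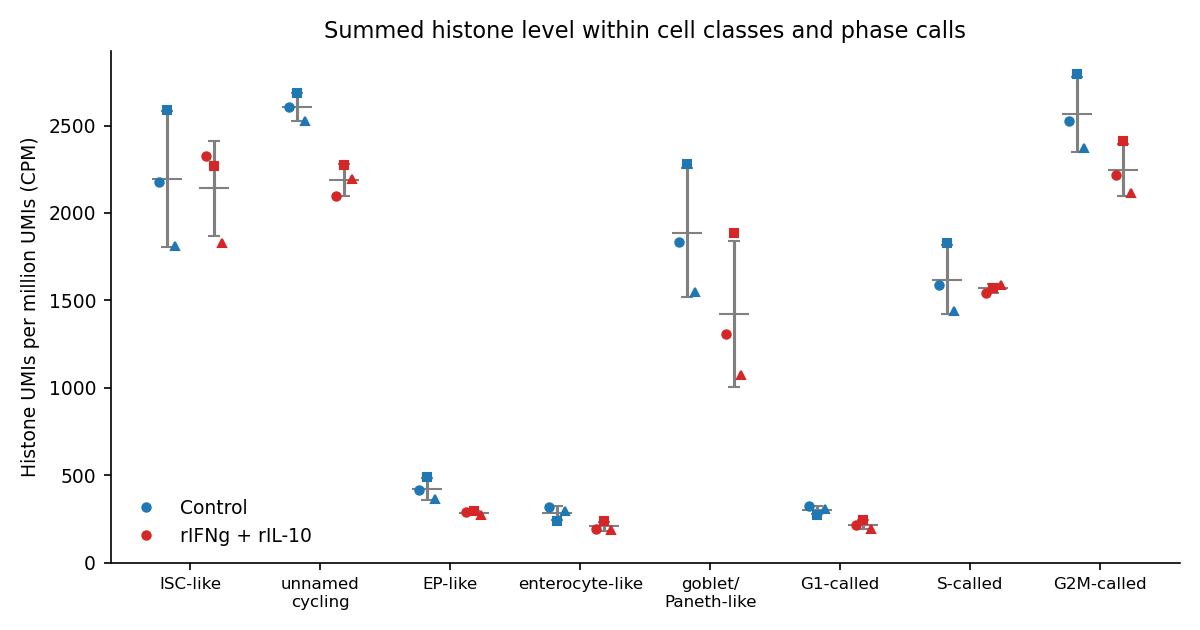
Summed level of the members in CPM within each cell class and phase call in control (blue) and with rIFNγ plus rIL-10 (red), 1 point per replicate (circle 1, square 2, triangle 3) with the mean and SD in grey. Levels are highest in unnamed cycling, ISC-like and G2M-called cells, and in unnamed cycling cells the control replicates (2526 to 2685 CPM) lie above those with cytokines (2096 to 2276 CPM).

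The comparison of Treg with Treg_aIFNg_aIL10R in S-called cells gave the remaining calls. There, Hist1h2ae was at 285, 270 and 283 CPM in replicates 1, 2 and 3 with Treg cells and at 211, 200 and 163 CPM with both antibodies (0.56 ± 0.10, adjusted p = 0.00689), without overlap. Hist1h2ap was at 600, 842 and 681 CPM with Treg cells and at 491, 677 and 529 CPM with both antibodies (0.34 ± 0.06, adjusted p = 0.00922), and these ranges overlapped. Thus 2 of 52 members were higher with Treg cells alone, where 0.301% of all genes were higher, and 15 members had an unadjusted p under 0.05. The median over members was 0.34. The summed level was 1767, 1973 and 1565 CPM with Treg cells and 1416, 1585 and 1219 CPM with both antibodies, higher without antibodies in 3 of 3 replicates, and it was 1587, 1830 and 1439 CPM in S-called control cells. Without the replicate block and without replicate 3, 0 members were called. In 1 fit, the difference of this comparison between S-called and G2M-called cells gave 0 of 58 members and 0% of 12568 genes, with 13 members at an unadjusted p under 0.05, among them Hist1h2ap (0.33, adjusted p = 0.785) and Hist1h2ae (0.42, adjusted p = 0.808).

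In every other comparison of co-cultures within classes and phase calls edgeR called 0 members. With Treg cells against control, the share of all genes called was 0.376% in ISC-like, 0.316% in unnamed cycling cells, 0.0673% in EP-like cells, 0.122% in enterocyte-like cells, 0.0106% in goblet/Paneth-like cells and 0.0325%, 0.0884% and 0.313% in G1-, S- and G2M-called cells, and 0 to 3 members per comparison had an unadjusted p under 0.05. In Treg_aIL10R it was 1.06%, 1.09%, 0.308%, 0.203% and 0.0953% in these classes and 0.065%, 0.31% and 0.887% in these phase calls, with 0 to 9 such members. In Treg_aIFNg it was 0.00884% in S-called cells and 0% elsewhere, with 0 to 1 such members, and in Treg_aIFNg_aIL10R it was 0.00832% in unnamed cycling cells and 0% elsewhere, with 0 to 9 such members. Between Treg and Treg_aIFNg_aIL10R it was 0.661%, 0.333%, 0.154%, 0.223% and 0.0212% in the classes, 0.0731% in G1-called and 0.356% in G2M-called cells, and 0.425% in the S-called cells described above.

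The other genes of histone supply were counted in lists. With cytokines in all cells, 17.5% of all 15002 genes fell and 18.4% rose. Of 10 tested genes for replication-independent histones, which replace histones outside S phase, 7 fell and 0 rose. They were H3f3b (-0.27 ± 0.03, adjusted p = 9.4e-05), H3f3a (-0.19 ± 0.05), H2afv (-0.63 ± 0.08), H2afj (-0.33 ± 0.04), H2afy (-0.23 ± 0.05), H2afx (-0.38 ± 0.08) and Cenpa (-0.41 ± 0.10). Of 17 histone chaperone genes, Daxx rose (0.25 ± 0.07, adjusted p = 0.0157), and Ssrp1, a subunit of FACT, fell (-0.20 ± 0.07, adjusted p = 0.0496). Of 14 genes for histone mRNA processing, Casp8ap2, whose product FLASH takes part in histone mRNA processing, rose (0.29 ± 0.07, adjusted p = 0.00635), and Srrt (-0.15 ± 0.06, adjusted p = 0.0490) and Lsm10 (-0.17 ± 0.06, adjusted p = 0.0375), a subunit of the U7 particle, fell. Slbp stood at 0.04 ± 0.05 (adjusted p = 0.574) and Npat, the activator of histone gene transcription, at -0.00 ± 0.07 (adjusted p = 0.976).

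Of 24 mitosis genes 23 fell with cytokines in all cells and 0 rose, with a median of -0.40. Examples are Ube2c (-0.31 ± 0.07), Birc5 (-0.21 ± 0.06), Mki67 (-0.34 ± 0.11) and Cenpf (-0.67 ± 0.15). Of 50 genes for the replication fork and nucleotide supply, 9 fell, such as Tyms (-0.38 ± 0.08), Ccna2 (-0.38 ± 0.10), Dbf4 (-0.30 ± 0.07) and Rpa3 (-0.20 ± 0.05), and 1, Rfc1, rose (0.20 ± 0.05). Among all genes 17.5% fell and 18.4% rose, so that the 9 of 50 lay near the share of all genes. The median of the replication list was -0.05, compared with -0.45 for the histone genes. Within ISC-like cells, 28 of the 50 replication genes rose and 0 fell (median 0.27), where 14.9% of all genes rose and 12.6% fell. Of the chaperone genes 7 of 17 and of the processing genes 7 of 14 rose there and 0 of either list fell, and 2 histone genes fell. Within unnamed cycling cells, 21 replication genes rose and 3 fell (median 0.20), while 12 of 24 mitosis genes fell and 1 rose, and 21 histone genes fell, where 12.1% of all genes rose and 11.4% fell. In G1-called cells, 11 of 48 replication genes fell and 1 rose, where 12.5% of all genes fell. In the comparisons of co-cultures in all cells, 0 genes of these 5 lists were called.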

How the data were processed

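Per the labels and the study's methods, the authors aligned hashtagged 3′ scRNA-seq reads to GRCm38 with Cell Ranger 7.0.0 and deposited UMI counts per gene and barcode, and those counts, unfiltered by hashtag, were the starting point. The library that the study excluded was not used. Hashtags were assigned per library with HTODemux (Seurat 5.3.0, CLR, quantile 0.99). Kept cells carried 1 hashtag, had between 10000 and 90000 UMIs in between 3000 and 10000 genes, and had a mitochondrial share of no more than 8.5%. Hashtag doublets were removed. Scrublet called 22 kept cells (0.185%), too few for its calls to be used, so doublets within a group were not removed, and their number was not tested.

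Cell classes were rebuilt from control cells (scanpy 1.11.5) without the members, the S, G2M, replication and mitosis lists and a list of interferon genes (other cell cycle genes remained), since the authors' annotation was not used here, so a difference from the study may come from rebuilt names. Counts were summed per group, replicate and class or phase call (at least 10 cells per sum). They were tested with edgeR 4.0.16 (quasi-likelihood, TMM, filterByExpr, replicate as block, all 6 groups in 1 fit, Benjamini-Hochberg over all genes tested). The study's mixed model was not run. Replicates are separate experiments, and samples of the same replicate deviated together from the means of their groups (r between 0.101 and 0.635 in 45 pairs). In 90 pairs of different replicates r was -0.410 to 0.0554. Deviations from a mean over 3 replicates cancel within a group, so that these lower values follow in part from the calculation. Alternatives were DESeq2 1.42.0, RLE scaling, no scaling, no filter, looser cell limits, equal class composition, no block and leaving out each replicate. The script was tested on simulated data with the same spread for every gene and no replicate effect. Recovery in the measured data can therefore differ. In the simulated data, small changes were missed more often than large ones. For sums of all cells, edgeR recovered 26% of genes changed to 1.5 times, 96% of those changed to 2 times and 88% of those changed to 0.5 times. A call of 0 members therefore does not show that small changes are absent.

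The members and gene lists were chosen with earlier results of these data known. Genes were named as follows: the 2 members per family with the highest UMI sum, with cytokines the 5 called members with the highest UMI sum and the 5 with the largest change, the 5 highest and 5 lowest ratios, and up to 8 called genes per list or the 4 with the highest UMI sum. Other members, and those named within classes and phase calls, were chosen after their values were seen.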

Additional observations from a re-analysis of the deposited data

Results flagged for a closer look

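Hist1h4h was singled out because its response to rIFNγ plus rIL-10 differed between unnamed cycling and ISC-like cells in a test of the difference itself (edgeR, log2 difference -0.65, adjusted p = 0.0383). It was the 1 member of 58 for which this held, where 0.533% of 12760 genes differed. In the same test the median difference over members was -0.32, and 15 members had an unadjusted p under 0.05.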

How the results depend on the processing

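In all cells with cytokines, the count of members past the threshold was 37, against 1 without the replicate block, 15 with equal class composition and 17 to 25 when a replicate was left out. It was 34 with DESeq2 and 37 with RLE, no scaling (chosen after seeing the data) and no filter. With looser cell limits it was also 37, but only 35 of the first 37 members were among them, and Hist3h2ba was called higher. Of the first 37 members, 0 changed sign under any of these settings. Without the replicate block, the pairing of samples no longer enters, and the count with cytokines was 0 in ISC-like (2 with the block), 3 in unnamed cycling (21), 0 in enterocyte-like (2) and 0 in G2M-called cells (16), and that for Treg against both antibodies over the phase calls was 0 (2). Leaving out a replicate gave, with cytokines, 12 to 15 in unnamed cycling cells, 2 to 7 in ISC-like cells, 0 to 4 in enterocyte-like cells, 1 to 2 in EP-like cells, 0 to 5 in G1-called, 0 to 1 in S-called and 6 to 14 in G2M-called cells. It gave 0 to 3 for Treg_aIL10R over the classes and 0 to 3 over the phase calls, 0 to 4 for Treg_aIFNg_aIL10R over the classes, and for Treg against both antibodies 0 to 1 in all cells, 0 to 3 over the classes and 0 to 4 over the phase calls. Fewer samples enter these fits, and beyond this the cause was not tested. The shares of all genes called under each of these settings are not given here. A change in a count can therefore not be read as particular to the histone genes. For the members named with cytokines by UMI sum or size of change, 72 values kept their sign and an adjusted p under 0.05 (edgeR or DESeq2). Another 28 values did not stay under this threshold, 9 of them without the block and 6 with equal class composition, and 0 reversed. The alternative without Scrublet doublets was not run. Members under 200 UMIs and classes with few cells limit what these depths can show.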
